A study of Homo sapiens with 7 samples.

Results

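Replication-dependent histone genes were taken as the genes whose symbols begin with HIST1H, HIST2H, HIST3H or HIST4H and that had sense poly(A) sites (PASs) in the 3 deposited count tables. There were 49 such genes of 16044 in all, with 158 PASs of 72453. PASs were counted by exact position over the 3 tables. An end listed a few bases apart in different tables, as at HIST2H2BC (positions 149816072 and 149816076), is thus counted more than once. The counts and shares of PASs by place and signal below carry this too. The reads came from 3′READS, which sequences the poly(A) end of RNA, so that each read marks 1 RNA end and does not scale with transcript length. HEK293 cells, a human embryonic kidney line, received a control siRNA (siCtrl) or siRNAs targeting the poly(A) polymerases Star-PAP (siStar-PAP), PAPα (siPAPα), PAPγ (siPAPγ) or both PAPα and PAPγ (siPAPα+γ). A group of 5 libraries, here called batch 1, held 1 library per condition. A further batch held siCtrl and siStar-PAP and was made with 3′READS+, a later form of the method. The siPAPα+γ library has its own table, which holds the siCtrl library of batch 1, and it is counted in batch 1 here. No label gives its batch, so the double knockdown and a separate preparation cannot be told apart. All cells carried an siRNA, the knockdown was transient, and no label says that libraries of the same condition came from separate cultures, so p-values measure only the spread between these libraries.

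Canonical histone mRNAs are made in S phase and are the only animal mRNAs known to end without a poly(A) tail. Their 3′ end is formed by cleavage a few bases after a conserved stem-loop, which is bound by the stem-loop binding protein SLBP, and the cut is directed by the U7 snRNP. A read with a poly(A) tail therefore marks another form of the RNA: one that was cleaved and polyadenylated downstream like an ordinary mRNA, or one that carries a tail at the stem-loop end. H2A, H2B, H3 and H4 histones form the nucleosome core, and H1 histones bind the linker DNA.

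A match to the histone stem-loop consensus, searched on the sense strand, was found within 22 to 56 bases (median 35, n = 46) after the stop codon of every coding member with a gene model. Of the 49 members, 48 had such a match in the gene model (GENCODE, GRCh37, which is hg19), and 2 of these, HIST2H2BA and HIST2H2BC, have no annotated stop codon. HIST1H2BG had no matched gene model. The window from 1000 bases before to 200 bases after the PAS held an exact match for 82 of the 158 histone PASs (51.9%) and for 134 of all 72453 sense PASs (0.185%). The 150 PASs with a measured distance fell into 4 places. There were 6 before the end of the stem-loop, 19 at 1 to 10 bases past it (here called stem-loop-end sites), 13 at 11 to 100 bases past it (near sites), and 112 more than 100 bases past it (distal sites). The limits of these classes were chosen after the distances had been seen.

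The stem-loop-end sites belonged to 19 different genes, 1 site in each, and lay 1 to 7 bases past the stem-loop, with 9 of the 19 at exactly 5 bases. A PAS of HIST1H2BG (chr6:26216440, minus strand, 28 reads over the 7 libraries) also ended just past a stem-loop match. It was left out of this class because HIST1H2BG had no matched gene model. The 30 bases that end at the PAS are shown for 5 of the 19 sites because the end of the read falls where the mature, tailless histone mRNA normally ends. Capitals mark the stem-loop.
HIST1H2BD, chr6:26158806-26158835, plus strand: aatcccaaaGGCTCTTTTAAGAGCCacgca
HIST1H2AH, chr6:27115317-27115346, plus strand: aaaacaaaGGCTCTTTTCAGAGCCattcta
HIST2H2AC, chr1:149858933-149858962, plus strand: agaccaaaGGCTCTTTTTAGAGCCacccaa
HIST1H4D, chr6:26188938-26188967, minus strand: aaaaccaacGGCCCTTTTCAGGGCCaccta
HIST1H2AE, chr6:26217636-26217665, plus strand: gaaaccaaaGGCTCTTTTCAGAGCCaccca

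The main PASs of the most-read genes, and those whose use is compared below, are shown next. They are the 30 bases that end at the PAS, and capitals mark the poly(A) signal, the hexamer that directs cleavage and polyadenylation of ordinary mRNAs. The HIST2H2BC site, with 449 reads in the 7 libraries, has no such signal and is printed without capitals.
HIST1H2BK, chr6:27106072-27106101, minus strand: ccttAATAAAtttgtatgccttttctctta
HIST3H2A, chr1:228644680-228644709, minus strand: tctgatATTAAAagtatttatgatctctaa
HIST1H2AG, chr6:27103042-27103071, plus strand: attcatAATAAAgtgaaatgttcaagttca
HIST1H1C, chr6:26055934-26055963, minus strand: tctcAATAAAagagctggataatttcttta
HIST2H2BC near site, chr1:149821829-149821858, minus strand: ctcagttaaagaatctttcttgtgttgtca
HIST1H2BD near site, chr6:26158837-26158866, plus strand: gttttcAATAAAtgagttgtaatcatttca
HIST1H2BD distal site, chr6:26175482-26175511, plus strand: ttatttcATTAAActttcagtaaatagtga
HIST1H2AE near site, chr6:26217678-26217707, plus strand: agtgctggAATACAcatacgatgcctgaaa
HIST1H3H, site 340 bases past the stem-loop, chr6:27778620-27778649, plus strand: cgccagaAATAAAactaaggttgtactgaa
HIST1H3H, site 768 bases past the stem-loop, chr6:27779048-27779077, plus strand: tatgactaAATAAAatctgtataatcccca
HIST1H3H, site 867 bases past the stem-loop, chr6:27779147-27779176, plus strand: ttctaaAATACAggctcatgagaggaggaa

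The 40 bases before the PAS held AATAAA for 33.5% of the histone PASs, ATTAAA for 13.3%, another variant of AATAAA with 1 base changed for 28.5%, and none of these for 24.7% (39 of 158). Over all sense PASs the shares were 45.2%, 15.7%, 24.9% and 14.2%. The share without a signal followed the place of the PAS. It was 13 of 19 at the stem-loop end, 2 of 13 at near sites and 19 of 112 at distal sites. Of the stem-loop-end sites 1 had AATAAA, and none had ATTAAA. The search was on the sense strand, and the 17 other variants were those that differ from AATAAA by 1 base, ATTAAA apart.

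The tables held 2347192 to 16191098 sense reads per library, out of 4249376 to 25085659 PAS-supporting (PASS) reads, and levels are given as RPM (reads per 1000000 PASS reads). TUT1, which encodes Star-PAP, had 83 reads in siCtrl and 2 in siStar-PAP of batch 1 (RPM ratio 0.0166, 95% interval 0.00198 to 0.0620), and had 6 and 4 reads in batch 2, too few to show a KD. PAPOLA, which encodes PAPα, had 71 reads in siCtrl and 12 after siPAPα (ratio 0.0770, 0.0380 to 0.143), and 78 and 8 in the table of the double KD (0.0624, 0.0260 to 0.129). PAPOLG, which encodes PAPγ, had 5 reads in siCtrl and 15 in the library labelled siPAPγ (ratio 2.32, 0.8005 to 8.15) and 6 in siPAPα+γ, so its counts could not check that label. VIM and NEFL, which HEK293 cells express, were read in every library, while PAX2, another of their markers, had 0 to 14 reads, and ALB, PTPRC, HBB and COL1A2, markers of liver, blood and connective tissue, were not listed. COL1A1, a further marker of connective tissue, had 0 to 12 reads, the most in siCtrl of batch 2. The siCtrl column of the double KD table held the same counts as that of the batch 1 table at 61 of 61 shared histone PASs, so the comparisons of batch 1 all share this siCtrl library. In RNA from a culture, fewer cells in S phase and less RNA per cell cannot be told apart.

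Polyadenylated histone RNA was concentrated in a few genes. HIST1H2BK (an H2B gene) gave 50.3% of the 44391 histone reads over the 7 libraries, HIST3H2A (H2A) gave 21.0%, and HIST1H2AG (H2A) gave 18.5%. With a mean of 233 RPM, HIST1H2BK ranked 400th of 16044 genes. The linker histone gene HIST1H1C followed with 2.55%. Only 10 members had more than 100 reads in all, 47 had any read in the 7 libraries, and 2 (HIST1H2BM and HIST2H2AB) had reads only in the siCtrl column of the double KD table. The 40 members after the 9 most read did not exceed 5.15 RPM in any library, a level reached by HIST1H4I in siCtrl of batch 2. The near-identical copies HIST2H2AA3 and HIST2H2AA4, HIST2H4A and HIST2H4B, and HIST2H3A, HIST2H3C and HIST2H3D had no row in any table.

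HIST1H2BK and HIST1H2AG each had 1 listed PAS, and HIST3H2A had 1 in batch 1 and a further one, 1042 bases past the stem-loop, in batch 2. The HIST1H2BK site lies 8073 bases past its stem-loop and beyond the GENCODE gene span (chr6:27114140-27114634, minus strand), the HIST1H2AG site lies 1762 bases past it and beyond the span chr6:27100822-27101314 (plus strand), and the HIST3H2A site lies 390 bases past it, within the annotated span. These sites were all classed as last exon in the tables. Last-exon PASs made up 98.1% to 99.8% of the histone reads of each library, against 95.1% to 96.4% of all sense reads.

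The summed level was 825 RPM in siCtrl of batch 1 (95% Poisson interval 808 to 842, 9424 reads). It was 438 RPM in siStar-PAP, 334 after siPAPα, 473 in siPAPγ and 466 in siPAPα+γ, each below the siCtrl library. In batch 2 it was 539 RPM in siCtrl (519 to 560) and 200.5 RPM in siStar-PAP (187 to 214). The ratios to siCtrl were 0.531 (0.515 to 0.548) and 0.372 (0.344 to 0.402) for siStar-PAP in batches 1 and 2, 0.405 (0.393 to 0.417) for siPAPα, 0.574 (0.556 to 0.592) for siPAPγ and 0.567 (0.551 to 0.584) for siPAPα+γ. These intervals, as all those of single libraries, cover counting error only. Levels of most genes were shifted on this scale: the median log2 ratio of all genes was -0.45, -0.16, -0.26, -0.33 and -0.38 in the same order. With TMM factors, which centre the genes, the summed ratios were 0.740, 0.420, 0.511, 0.747 and 0.764, so each stayed below 1. HIST1H2BK decided the size of the sum. Without it, the RPM ratios were 0.355, 0.291, 0.283, 0.369 and 0.301, and without the 3 most-read members, an alternative added after seeing the data, they were 0.432, 0.216, 0.173, 0.342 and 0.157.

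HIST1H2AG encodes an H2A protein. It had 298 RPM in siCtrl of batch 1, and 75.4 in siStar-PAP, 49.4 after siPAPα, 58.1 in siPAPγ and 58.1 in siPAPα+γ. In batch 2 it had 64.2 RPM in siCtrl and 10.4 in siStar-PAP. Every KD library was below the siCtrl library of its batch, and all 4 KD libraries of batch 1 lay within 49.4 to 75.4 RPM. The 2 siCtrl libraries themselves differed by more than their counting error, and batch and library protocol cannot be told apart.

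HIST1H1C encodes a linker histone. It had 52.7 RPM in siCtrl of batch 1, 9.85 in siStar-PAP, 4.505 after siPAPα, 11.6 in siPAPγ and 2.82 in siPAPα+γ. In batch 2 it had 5.35 RPM in siCtrl (27 reads) and 0.941 in siStar-PAP (4 reads). Its ratio to siCtrl in siPAPα+γ, 0.0535 (0.0396 to 0.0710), was the lowest of any member with more than 50 reads over the pair in the 5 comparisons.

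HIST1H2BK encodes an H2B protein and followed another pattern. It had 247 RPM in siCtrl of batch 1, 232 in siStar-PAP, 170 after siPAPα, 260 in siPAPγ and 293 in siPAPα+γ, so the KD libraries lay on both sides of siCtrl. In batch 2 it had 298 RPM in siCtrl and 130 in siStar-PAP. The siStar-PAP ratio was 0.943 (0.898 to 0.990) in batch 1 and 0.437 (0.396 to 0.482) in batch 2, intervals that do not overlap. With TMM factors the ratio of batch 1 was 1.31 and that of batch 2 was 0.494, so the direction in batch 1 depends on the scaling.

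HIST3H2A (H2A) had 153 RPM in siCtrl of batch 1, 75.5 in siStar-PAP, 92.2 after siPAPα, 112 in siPAPγ and 95.9 in siPAPα+γ. In batch 2 it had 77.4 RPM in siCtrl and 38.4 in siStar-PAP, and its siStar-PAP ratio was nearly the same in both batches, 0.493 (0.458 to 0.530) and 0.495 (0.410 to 0.596). Of the 3 most-read genes it was thus the only one whose siStar-PAP intervals overlapped between batches.

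Among the less-read members, HIST1H2BD (H2B) had 11.4 RPM in siCtrl of batch 1, 8.64 in siStar-PAP, 2.19 after siPAPα, 3.99 in siPAPγ and 2.39 in siPAPα+γ, and 33.3 and 5.65 in siCtrl and siStar-PAP of batch 2. HIST2H2BC, an H2B locus that GENCODE annotates as a pseudogene, had 9.54, 8.64, 3.39, 3.51 and 6.28 RPM in the libraries of batch 1 in the same order, and 29.7 and 2.82 in batch 2. Both were near siCtrl in siStar-PAP of batch 1 and far below it in batch 2. HIST1H2AE (H2A) had 11.4, 5.38, 0.877, 2.43 and 1.06 RPM in batch 1, and 4.56 and 1.88 in batch 2. HIST1H3H (H3) had 7.53, 2.96, 2.07, 5.95 and 2.08 RPM in batch 1, and 4.56 and 1.18 in batch 2. HIST3H2BB (H2B) stayed within 0.797 to 2.19 RPM in batch 1, and had 5.35 and 2.35 in batch 2. On the RPM scale the siCtrl library had the highest level of its batch for each of these 5 genes. With TMM factors the ratio to siCtrl in siStar-PAP of batch 1 was 1.26 for HIST2H2BC and 1.06 for HIST1H2BD, and that of HIST1H3H in siPAPγ was 1.03.

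The members ranked 10 to 20 by reads had 45 to 105 reads in all. They were HIST1H2BI, HIST1H2AH, HIST1H2BL, HIST1H3A, HIST1H2BG, HIST1H2AI, HIST1H3B, HIST1H4E, HIST1H2AL, HIST2H2BA and HIST1H4D. HIST1H2BI and HIST1H2AL cannot be compared across tables, because PASs given to them in the batch 1 table were classed as upstream antisense of HIST1H4H or HIST1H1B in the others. The remaining 29 members had at most 45 reads each, so that only large differences exceed counting error. An example, chosen after its values were seen, is the H4 gene HIST1H4K, with 26 reads in siCtrl of batch 1 and 2 in siStar-PAP (ratio 0.0531, 0.00611 to 0.212).

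**Figure D1:**
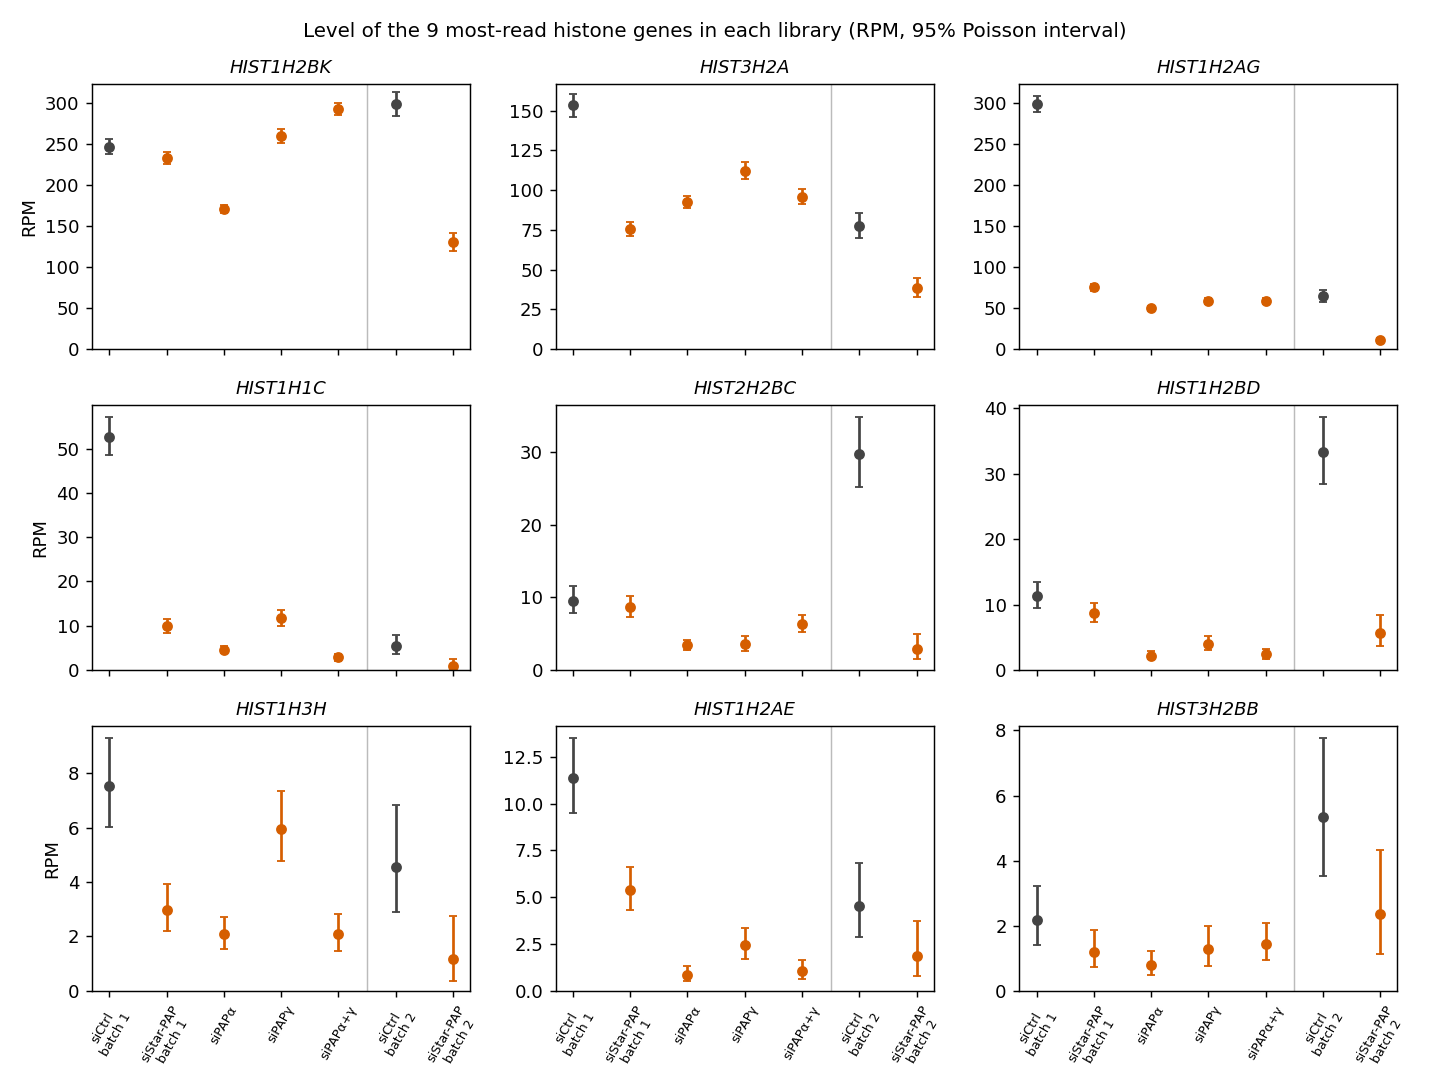
Levels in RPM (y axis, separate scale per gene) of the 9 histone genes with the most reads in each of the 7 libraries (x axis, siCtrl in grey and KDs in orange, batch 2 right of the line), with 95% Poisson intervals. HIST1H2AG and HIST1H1C are highest in the siCtrl library of each batch, whereas HIST1H2BK of batch 1 spans 170 to 293 RPM with siCtrl inside that range.

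By histone family, H1 reads were 54.2 RPM in siCtrl of batch 1 and 2.87 to 11.6 RPM in its KD libraries. H2A reads were 470 RPM in siCtrl and 145 to 177 RPM in the KDs. H3 reads were 16.2 RPM and 3.03 to 9.67 RPM. H2B reads, led by HIST1H2BK, were 278 RPM in siCtrl and 180 to 304 RPM in the KDs, so that H2B had a KD library above siCtrl in batch 1. H4 reads were few, 5.86 RPM in siCtrl and 0.639 to 4.11 RPM in the KDs. In batch 2 the siStar-PAP library was below siCtrl in all 5 families.

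Whether the siStar-PAP change held over both batches was tested with edgeR's quasi-likelihood test on the 4 libraries, with the batch as a block and Benjamini-Hochberg adjustment over 11614 genes. The fit has 1 residual degree of freedom per gene, and its spread is shared across genes. Of the 25 members listed in both batches, 9 passed the filter on low counts, and 2 of these 9 fell, against 1.08% of all genes tested that fell. HIST1H2AG fell by 1.91 on the log2 scale (SE 0.359, adjusted p = 0.00750, edgeR) and HIST1H1C by 2.01 (SE 0.447, adjusted p = 0.0202, edgeR). Both were lower in siStar-PAP in both batches. The other 7 did not pass the test. Their log2 changes were -0.28 for HIST1H2BK, -0.65 for HIST3H2BB, -0.66 for HIST3H2A, -0.76 for HIST1H2AE, -1.03 for HIST1H2BD, -1.17 for HIST2H2BC and -1.18 for HIST1H3H. All 9 values were below 0, with a median of -1.03, and the median over all genes tested was -0.01. Without the batch block no gene was called (0 of 11614, with 62 at an unadjusted p under 0.05 and no member among them). DESeq2 with the block called the same 2 members.

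The same test on 13743 PASs gave 2 falls among the 10 histone PASs tested, against 0.902% of all PASs tested that fell. They were the HIST1H2AG site (fell by 1.95, adjusted p = 0.00442, edgeR) and the HIST1H1C near site (fell by 2.11, adjusted p = 0.0286, edgeR). DESeq2 called 1 of them, the HIST1H2AG site, and edgeR called 0 with PASS totals as library size and 0 without the batch block. The HIST1H2BD distal site, at -1.55 (SE 0.953), and the HIST1H2AE distal site 183 bases past the stem-loop, at 2.36 (SE 1.82), did not pass the test.

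Single-library comparisons used the rule of more than 50 reads over the pair and a change of more than 2-fold. They compare libraries, with no replicate and no p. In siStar-PAP of batch 1, 5 of 10 members were past 2-fold lower, against 26.2% of all genes, and none was higher, against 4.44%. The share of genes lower depends on the scaling there: 2637 lower and 448 higher genes by RPM became 1295 and 1173 with TMM factors, and the members lower became 2, HIST1H1C and HIST1H2AG. In batch 2, 5 of 5 members were lower, against 11.7%, and none higher, against 3.55%. HIST2H2BC had the lowest ratio there, with 150 and 12 reads (0.0950, 0.0480 to 0.171), followed by HIST1H2AG (0.161, 0.115 to 0.222) and HIST1H2BD (0.170, 0.106 to 0.261). HIST2H2BC in batch 1 had a ratio of 0.906 (0.701 to 1.17) and HIST1H2BD one of 0.759 (0.595 to 0.971), and neither interval overlaps that of batch 2.

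In siPAPα, 7 of 9 members were past 2-fold lower, against 22.1% of all genes, and none was higher, against 8.5%. HIST1H2AE had the lowest ratio (0.0771, 0.0467 to 0.122), then HIST1H1C (0.0855, 0.0693 to 0.105) and HIST1H2AG (0.166, 0.155 to 0.177). HIST1H2BK, at 0.691 (0.659 to 0.725), and HIST3H2A, at 0.602 (0.565 to 0.641), had the highest ratios. In siPAPγ, 6 of 9 were lower, against 20.7%, and none higher, against 5.67%. HIST1H2AG (0.195, 0.180 to 0.210), HIST1H2AE (0.214, 0.144 to 0.311) and HIST1H1C (0.221, 0.185 to 0.262) were lowest, and HIST1H2BK (1.05, 1.00 to 1.11) and HIST1H3H (0.790, 0.580 to 1.08) were highest.

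In siPAPα+γ, 5 of 9 members were past 2-fold lower, against 26.5% of all genes, and none was higher, against 6.98%. After HIST1H1C the lowest were HIST1H2AE (0.0935, 0.0553 to 0.150) and HIST1H2AG (0.195, 0.182 to 0.208). HIST1H2BK was at 1.19 (1.13 to 1.24) and HIST2H2BC at 0.658 (0.503 to 0.862). With TMM factors the members lower were 7 after siPAPα, 5 in siPAPγ and 5 in siPAPα+γ, while all genes became evenly split, 1492 lower and 1617 higher in siPAPα, 1118 and 1151 in siPAPγ, and 1502 and 1478 in siPAPα+γ. In siStar-PAP of batch 2 the split was 589 and 426, with 4 members lower.

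The median log2 ratio of the members tested was -0.94 in siStar-PAP of batch 1, -2.56 in batch 2, -1.86 after siPAPα, -1.44 in siPAPγ and -2.03 in siPAPα+γ, beside the medians of all genes given above. HIST1H2AG was past 2-fold lower in each of the 5 comparisons, also with TMM factors. HIST1H1C was in each of the 4 comparisons in which it had more than 50 reads. These comparisons of batch 1 share their siCtrl library, so a high count there lowers the ratio in all 4.

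**Figure D2:**
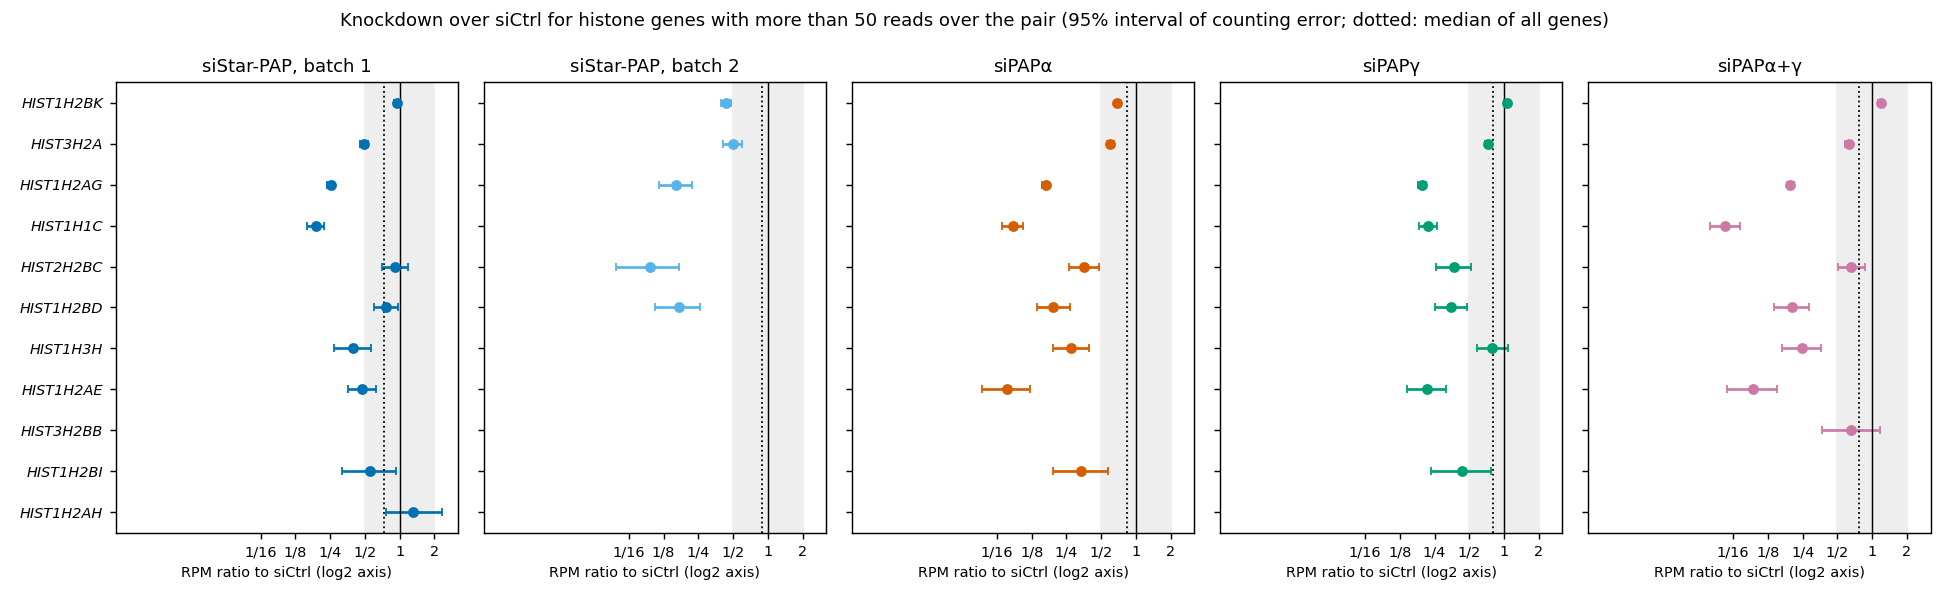
RPM ratio of each KD library to its siCtrl library (x axis, log2 scale) for the histone genes with more than 50 reads over the pair (rows, most-read at the top), with 95% intervals of counting error. The grey band is the range within 2-fold, the solid line is no change and the dotted line is the median of all genes. HIST1H2AG and HIST1H1C lie left of the band wherever they are shown, and HIST1H2BK lies inside it in all but siStar-PAP of batch 2.

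Reads were next divided by the distance of the PAS from the stem-loop, leaving out the 3 most-read genes, which have only distal sites. Stem-loop-end sites held 104 of 1445 reads in siCtrl of batch 1 (7.20%, 95% Clopper-Pearson interval 5.92% to 8.65%). They held 204 of 904 in siStar-PAP (22.6%, 19.9% to 25.4%), 91 of 549 after siPAPα (16.6%, 13.6% to 19.96%) and 55 of 639 in siPAPγ (8.61%, 6.55% to 11.1%). In the double KD table they held 114 of 1415 in siCtrl (8.06%, 6.69% to 9.60%) and 3 of 366 in siPAPα+γ (0.820%, 0.169% to 2.38%). The HIST1H4J site, with 10 siCtrl reads, is in this class there but is a near site in the batch 1 table. The share was thus higher in siStar-PAP and siPAPα than in the siCtrl library, beyond counting error, while in siPAPγ the interval overlapped that of siCtrl. In siPAPα+γ it was lower, but 13 of the 14 sites had 0 reads there and were listed only through siCtrl. The listing thus fixed the direction of those 13 sites, and no conclusion is drawn from the lower share. In siPAPα, HIST1H2BD and HIST1H2AH held 39 and 29 of the 91 reads, against 20 and 21 of the 104 in siCtrl. The higher share in siPAPα therefore rests on these genes and is not read as a change across the stem-loop-end sites. By RPM 13 of the 18 sites were lower in siPAPα than in siCtrl and 3 were higher. The share without both genes was not taken. Without HIST1H2BD, left out after its counts were seen, the shares were 6.39% (5.13% to 7.85%) in siCtrl, 13.1% (10.8% to 15.7%) in siStar-PAP, 10.53% (7.96% to 13.6%) after siPAPα, 4.31% (2.81% to 6.30%) in siPAPγ and 0.935% (0.193% to 2.71%) in siPAPα+γ. In batch 2 only 3 such sites were listed, with 5 reads in siCtrl and 6 in siStar-PAP.

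As levels, stem-loop-end sites were at 9.10 RPM in siCtrl of batch 1, 12.3 in siStar-PAP, 3.63 after siPAPα and 3.72 in siPAPγ. The siStar-PAP ratio was 1.35 (1.06 to 1.73), while that of near sites was 0.331 (0.293 to 0.374) and that of distal sites 0.365 (0.315 to 0.423). HIST1H2BD decided the first of these. Without it, stem-loop-end sites had 84 and 100 reads and a ratio of 0.822 (0.609 to 1.11), which was still above the ratios of the near and distal sites. In siPAPα+γ the ratio of stem-loop-end sites was 0.0160 (0.00325 to 0.0480), and 0.0194 (0.00393 to 0.0585) without HIST1H2BD, whereas near sites had 0.144 (0.122 to 0.169) and distal sites 0.207 (0.173 to 0.247). A site enters a table if it passed the read filter in any of its libraries. A site of the double KD table thus had reads in siCtrl, in siPAPα+γ or in both. At 13 of the 14 stem-loop-end sites the reads were in siCtrl only, so their low ratio comes from sites listed through siCtrl. No label gives the batch of the siPAPα+γ library, so the double KD and a separate preparation cannot be told apart in these ratios. HIST1H1C led the near sites, and without it their ratios were 0.577 (0.482 to 0.690) in siStar-PAP of batch 1, 0.216 after siPAPα, 0.372 in siPAPγ and 0.336 in siPAPα+γ. The first of these intervals overlaps that of stem-loop-end sites without HIST1H2BD, so their difference from near sites in siStar-PAP rests on these genes.

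Of the single stem-loop-end sites, HIST1H2BD had 20 reads in siCtrl, 104 in siStar-PAP, 39 after siPAPα, 30 in siPAPγ and 0 in siPAPα+γ. HIST1H2AH, an H2A gene, had 21, 34, 29, 1 and 0 reads in the same order. HIST1H4D, an H4 gene, had 3, 21, 4, 1 and 0, and HIST2H2AC, an H2A gene, had 12, 13, 6, 9 and 0. All 4, chosen for their reads after the counts were seen, were at 0 reads in siPAPα+γ, where a count of 0 has an upper 95% limit of 0.196 RPM. Over all stem-loop-end sites listed, the RPM in siStar-PAP of batch 1 was higher than in siCtrl at 6 of 18, lower at 9 and equal (both at 0) at 3, so the summed level rests on a few sites. Those lower included HIST1H2AC, with 10 and 3 reads, and HIST1H2BL, with 8 and 0. In siPAPα 13 of 18 were lower and 3 higher, and in siPAPγ 12 of 18 were lower and 4 higher. In siPAPα+γ 14 of 14 were lower, 13 of them at 0 reads, and the 3 reads left were all at HIST1H4J, an H4 gene. The HIST1H4J end is listed 6 bases past the stem-loop in the double KD table. In the batch 1 table it is listed 14 bases past, as a near site, so its class differs between the tables. Those 13 sites could be listed only through siCtrl, so their direction was fixed by the listing. No listed site had reads in siPAPα+γ alone.

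**Figure D3:**
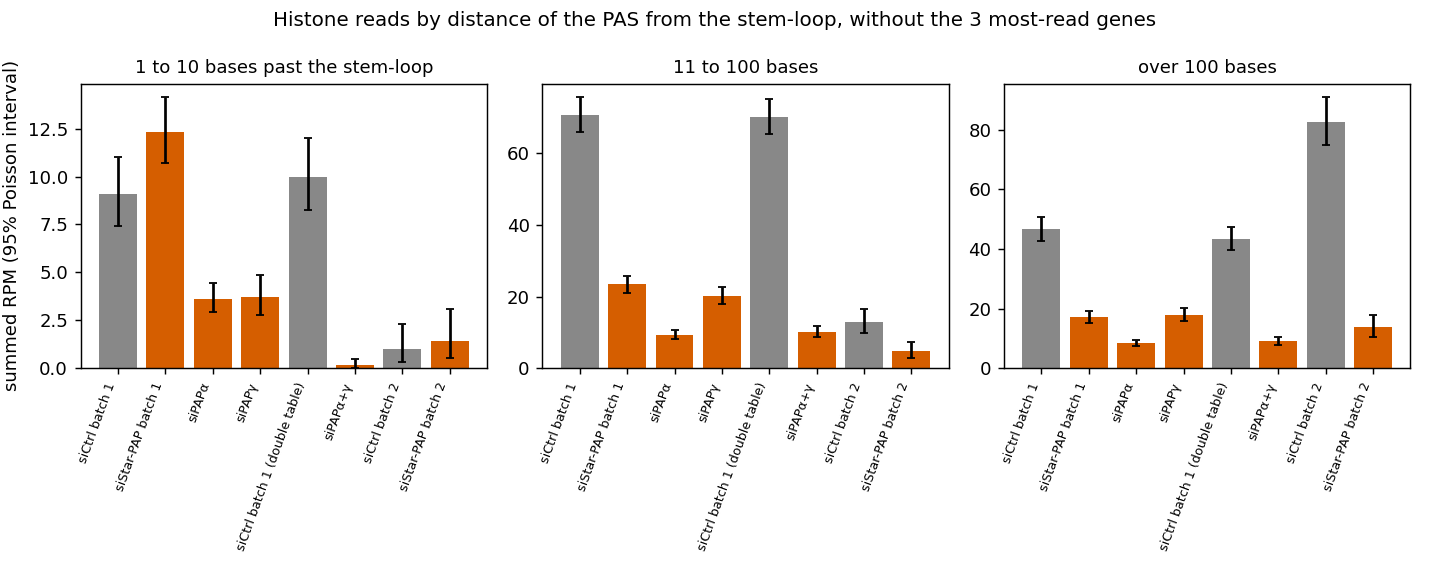
Summed RPM (y axis, from 0) of histone PASs at 1 to 10, 11 to 100 and over 100 bases past the stem-loop, without the 3 most-read genes, in each library (siCtrl in grey, KDs in orange), with 95% Poisson intervals. The siCtrl library of batch 1 is drawn once for each of the 2 tables that hold it. Stem-loop-end sites are at 12.3 RPM in siStar-PAP of batch 1 against 9.10 in siCtrl, and at 0.160 in siPAPα+γ against 9.98. For siPAPα+γ, 13 of the 14 sites were listed only through siCtrl.

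Site use was tested as the share of each PAS in the sense reads of its gene, by Fisher's exact test, two-sided, against siCtrl over all genes with at least 2 PASs and 20 reads in each library, adjusted over all PASs. The test compares the reads of 2 libraries, not the conditions. In siStar-PAP of batch 1, 17 of 29 histone PASs passed, against 40.6% of all PASs. The counts were 2 of 10 against 8.61% in batch 2, 14 of 30 against 42.3% after siPAPα, 8 of 19 against 29.4% in siPAPγ and 8 of 27 against 39.1% in siPAPα+γ. The histone share was near the background in siPAPα and below it in siPAPα+γ. PASs of a gene are not independent, because a rise at a site lowers the share of the others. The PASs that passed came from 6 of 8 genes in siStar-PAP of batch 1, and 1 of 2 in batch 2. They came from 6 of 8 in siPAPα, 4 of 5 in siPAPγ and 4 of 5 in siPAPα+γ. The share of all genes with such a PAS was not taken, so these gene counts have no background to be read against. The batch 2 calls did not hold at a higher read limit. In siStar-PAP of batch 1 and in siPAPγ the histone share was above the background, but that difference was not tested. The PAS counts are therefore not read as setting the histone PASs apart in any comparison.

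HIST1H2BD had the smallest adjusted p of the histone PASs in siStar-PAP of batch 1. Its stem-loop-end site, which the tables class as intronic, held 15.4% of the reads of the gene in siCtrl (9.66% to 22.8%, 20 of 130). It held 72.7% in siStar-PAP (64.7% to 79.8%, exact test, adjusted p = 1.70e-20), 70.9% after siPAPα (57.1% to 82.4%, exact test, adjusted p = 9.26e-12) and 50.8% in siPAPγ (37.5% to 64.1%, exact test, adjusted p = 1.29e-05). In siPAPα+γ it held 0 of 45 reads, against 14.8% in siCtrl of that table (exact test, adjusted p = 0.0151). The stem-loop-end site was listed in that table only through siCtrl. The near site, 36 bases past the stem-loop, held 30.8% in siCtrl of batch 1, 16.1% in siStar-PAP, 3.64% after siPAPα and 33.9% in siPAPγ, and 51.1% in siPAPα+γ. The share of the site 3730 bases past the stem-loop fell from 25.4% to 2.10% in siStar-PAP (exact test, adjusted p = 7.74e-08). In batch 2 the stem-loop-end site was not listed, and the distal site 16681 bases past the stem-loop held 75.0% of reads in siCtrl (126 of 168) and 41.7% in siStar-PAP (10 of 24, exact test, adjusted p = 0.0238).

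HIST1H2AE had all of its 130 siCtrl reads of batch 1 at the near site, 47 bases past the stem-loop. In siStar-PAP that share was 68.5% (57.8% to 78.0%, exact test, adjusted p = 2.28e-11), with 24.7% at 183 bases and 6.74% (6 reads) at the stem-loop end. In batch 2, siCtrl itself had 52.2% of 23 reads at the near site. HIST1H1C had 88.0% of its reads at the near site in siCtrl and 87.7% in siStar-PAP of batch 1, 93.8% after siPAPα, 95.3% in siPAPγ and 79.2% in siPAPα+γ. A site 87 bases past its stem-loop rose from 0.498% to 9.20% of reads in siStar-PAP (15 reads, exact test, adjusted p = 4.08e-07).

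HIST3H2BB, read at low depth, had 16% of 25 siCtrl reads at its near site, 33 bases past the stem-loop. The share was 75% of 20 reads in siStar-PAP of batch 1 (50.9% to 91.3%, exact test, adjusted p = 0.000603) and 75% of 20 in siPAPα (exact test, adjusted p = 0.000498). It was 22.2% of 27 reads in siPAPα+γ, which did not pass the test, and in batch 2 it was 25.9% of 27 in siCtrl and 20% of 10 in siStar-PAP. The HIST2H2BC near site held 73.4% of reads in siCtrl of batch 1 and 100% in siPAPα (85 of 85, exact test, adjusted p = 1.33e-07), and 13.3% of 150 reads in siCtrl of batch 2.

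HIST1H3H divided its reads among 3 distal sites. The site 867 bases past the stem-loop, whose nearest signal is AATACA, held 64.0% of reads in siCtrl (52.9% to 74.0%), 18.4% in siStar-PAP, 25.0% after siPAPα and 22.7% in siPAPγ (exact tests, adjusted p = 4.38e-06, 7.08e-05 and 1.12e-06). The AATAAA site at 340 bases rose from 20.9% to 53.1% in siStar-PAP and to 48.9% in siPAPγ (exact tests, adjusted p = 0.00137 and 0.00110). In siPAPα it held 21.2%, and the AATAAA site at 768 bases instead rose from 15.1% to 53.8% (exact test, adjusted p = 2.00e-05). The share of the 867-base site was thus lower in each single KD than in siCtrl of batch 1. The siCtrl library of batch 2 differed from that of batch 1 in the same direction, with 13.0% of 23 reads at the 867-base site and 60.9% at the 340-base site. In siPAPα+γ the 867-base site held 41.0% against 56.7% in siCtrl, which did not pass the test (exact test, adjusted p = 0.216), and the 340-base site held 43.6% against 18.6% (exact test, adjusted p = 0.0150).

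**Figure D4:**
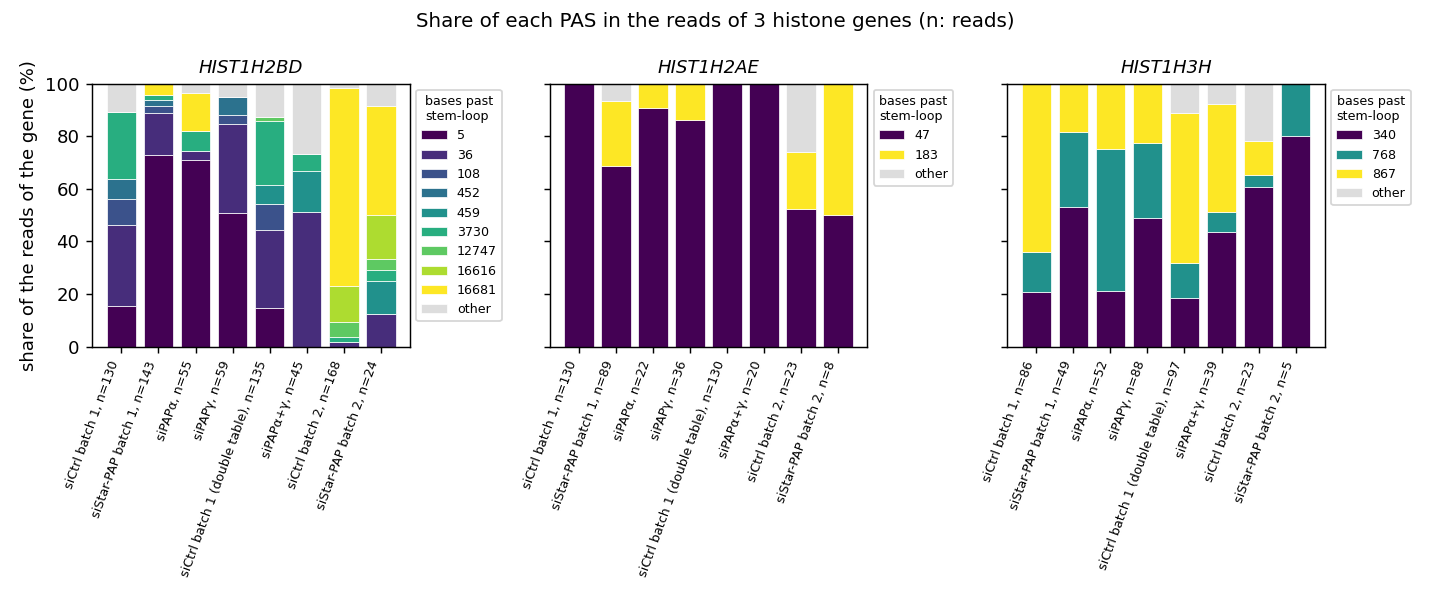
Share of the reads of HIST1H2BD, HIST1H2AE and HIST1H3H (y axis, percent) at each PAS, coloured by its distance in bases past the stem-loop, in each library (x axis, n is the reads of the gene). Sites that never reach 10 reads are in grey. The HIST1H2BD site at 5 bases takes 15.4% in siCtrl and 72.7% in siStar-PAP of batch 1, and 0% in siPAPα+γ.

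Genes that act in forming histone mRNA ends were followed as a list of 20: SLBP, the U7 snRNP proteins LSM10 and LSM11, cleavage factors shared with polyadenylation, cap-binding proteins and factors of histone mRNA decay. The list was composed with earlier results of these data known. In the test over both batches none of the 19 tested was called by edgeR or by DESeq2, and 0 had an unadjusted p under 0.05 in edgeR (median log2 change 0.23, and -0.01 over all genes). Of all 11614 genes, edgeR called 141 higher and 125 lower, so 0 calls in a list of this size says little about change. The same holds for the lists of S phase and replication-independent histone genes below. In siStar-PAP of batch 1, 1 of 18 was past 2-fold higher and 5 lower (median log2 ratio -0.45, and -0.45 over all genes). In batch 2 none of 13 was past 2-fold. In siPAPα 3 of 19 were higher and 3 lower, in siPAPγ 3 of 19 and 3, and in siPAPα+γ 3 of 18 were higher and 4 lower. Over all genes the shares higher and lower were 4.44% and 26.2% in siStar-PAP of batch 1, 8.5% and 22.1% in siPAPα, 5.67% and 20.7% in siPAPγ, and 6.98% and 26.5% in siPAPα+γ. SLBP had 13.7 RPM in siCtrl of batch 1, 9.06 in siStar-PAP, 7.69 after siPAPα, 11.8 in siPAPγ and 5.91 in siPAPα+γ, and 9.90 and 14.1 in siCtrl and siStar-PAP of batch 2.

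The 6 genes of this list with the most reads were SRRT, CPSF3, LSM10, UPF1, NCBP2 and CPSF2. CPSF3, the endonuclease that cuts both histone and ordinary pre-mRNAs, had 135 RPM in siCtrl of batch 1 and 32.6 to 49.9 in the KD libraries, but 324 and 265 in siCtrl and siStar-PAP of batch 2. SRRT, which links the cap-binding complex to 3′ end processing, had 822 RPM in siCtrl and 301.04 to 552 in the KDs, and 235 and 238 in batch 2. LSM10 had 38.2 RPM in siCtrl and 46.6 to 66.3 in the KDs, but 12.1 and 7.53 in batch 2 (ratio 0.623, 0.393 to 0.971). The ratios of UPF1, which acts in histone mRNA decay, ran from 0.853 in siStar-PAP to 1.71 after siPAPα, those of NCBP2 from 0.750 in siPAPα+γ to 0.943 in siPAPγ, and those of CPSF2 from 0.847 in siPAPγ to 1.03 in siPAPα+γ, all in batch 1 against the siCtrl column of the same table. In batch 2 the siStar-PAP ratios of these 3 genes were 1.23, 1.33 and 0.792.

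S phase genes, 24 in the list, gave 0 called of 23 tested over both batches by edgeR or DESeq2, with 2 at an unadjusted p under 0.05 in edgeR (median log2 change 0.12). In the single-library comparisons none was past 2-fold higher. Those lower were 5 of 23 in siStar-PAP of batch 1, 2 of 20 in batch 2, 5 of 23 after siPAPα, 4 of 23 in siPAPγ and 7 of 23 in siPAPα+γ, beside 26.2%, 11.7%, 22.1%, 20.7% and 26.5% of all genes. Their median log2 ratios were -0.61, 0.19, -0.35, -0.39 and -0.70 in that order, beside -0.45, -0.16, -0.26, -0.33 and -0.38 over all genes. SLBP is also in this list. The part of S phase in the histone levels was not tested. Replication-independent histone genes, 12 in the list, make variants such as H2A.Z and H3.3. The mRNAs of H2A.Z and H3.3 carry a poly(A) tail, but this was not checked for every gene of the list, H2AFX among them. None of the 11 genes tested was called over both batches by edgeR or DESeq2, with 3 at an unadjusted p under 0.05 in edgeR (median log2 change -0.12). In the single-library comparisons 6 of 11, 1 of 8, 4 of 11, 3 of 10 and 6 of 10 were past 2-fold lower in the same order, to be read beside the same shares of all genes, and none was higher. Their median log2 ratios were -1.06, -0.16, -0.80, -0.59 and -1.14, each nearer to 0 than that of the replication-dependent members except in siStar-PAP of batch 1.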

How the data were processed

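3′READS and 3′READS+ libraries of HEK293 cells were aligned by the authors to hg19 with Bowtie2 (version not given in the sources used here). The authors kept reads with at least 2 untemplated Ts (PASS reads), clustered ends within 24 nt into PASs, and deposited raw read counts per PAS in 3 tables. Sense counts were summed per gene. RPM used the PASS totals of each library that the study gives. Poisson, Clopper-Pearson and ratio intervals are exact, at 95%, and cover counting error only. Depth was 4249376 to 25085659 PASS reads per library.

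The 4 siCtrl and siStar-PAP libraries were tested with edgeR 4.0.16 (R 4.3.3, quasi-likelihood, TMM factors, filterByExpr, threshold 0.05), with the batch named in the labels as a block; same-numbered libraries deviated together (r = 0.858, a single value with 2 pairs). Single-library comparisons required more than 50 reads over the pair and more than 2-fold. Site use was tested with Fisher's exact test (scipy 1.17.1). A gene is listed, and passes the read limit, through either library of a pair. The code was tested on simulated data. Alternatives were DESeq2 1.42.0, other scalings, filters, read limits and left-out libraries.

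Named genes were the 20 most-read members, members called over both batches, the 2 highest and lowest per comparison, the targeted genes, members with several well-read PASs, and near-identical copies. Members and lists were chosen with earlier results of these data known. Stem-loops, signals and sequences were read from GRCh37 with GENCODE annotation.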

Additional observations from a re-analysis of the deposited data

Results flagged for a closer look

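An upstream antisense PAS of HIST1H1D (chromosome 6, position 26235647, plus strand), outside the sense counts used above, had more reads in 2 KD libraries than siCtrl allows. It had 11 reads in siPAPγ (0.744 RPM, 95% interval 0.371 to 1.33) and 12 reads in siPAPα+γ (0.639 RPM, 0.330 to 1.12), and 0 in siCtrl of batch 1, whose upper limit is 0.323 RPM. It had 6 reads in siPAPα and 0 in siStar-PAP of batch 1, and in batch 2 it had 2 reads in siCtrl and 0 in siStar-PAP.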

How the results depend on the processing

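The 2 gene calls of siStar-PAP over both batches were also made with RLE factors, PASS totals, no filter, DESeq2, and genes of either table (added after seeing the data). They rest on the batch block: without the replicate block 0 members were called (HIST1H1C -1.92, HIST1H2AG -1.62), and with any 1 library left out, which leaves 1 sample in a group and no block, 0 to 0 were called. For PASs the calls were 0 with PASS totals, 1 with DESeq2, 0 without the replicate block, and 0 to 0 with a library left out. In those fits without the block the log2 change of HIST1H1C was 0.33 without siCtrl replicate 1, that of HIST1H2BK was 0.062 without siCtrl replicate 2 and 0.11 without siStar-PAP replicate 2, and that of HIST3H2BB was 0.16 without siCtrl replicate 2; the cause was not tested. Members past 2-fold lower in siStar-PAP of batch 1 were 2 of 10 with TMM factors and 2 of 10 with DESeq2 factors, against 12.8% and 12.9% of all genes. With a limit of 20 reads, which tests more genes, members past 2-fold were 9 and 10 in siStar-PAP of batches 1 and 2, 15 in siPAPα, 15 in siPAPγ and 10 in siPAPα+γ, where a limit of 1.5-fold gave 8. The shares of all genes past these 2 limits are not given, so these counts do not set the members apart. The summed ratios, in the order siStar-PAP of batches 1 and 2, siPAPα, siPAPγ and siPAPα+γ, were 0.740, 0.420, 0.511, 0.747 and 0.764 with TMM factors, 0.738, 0.425, 0.502, 0.735 and 0.768 with DESeq2 factors, and 0.355, 0.291, 0.283, 0.369 and 0.301 without HIST1H2BK. With table totals they were 0.557, 0.442, 0.690 and 0.683 in batch 1. Site use calls were 11 in siStar-PAP of batch 1 when a change of 10 points was also required, and with at least 50 reads 0 in siStar-PAP of batch 2, 9 in siPAPα and 1 in siPAPα+γ. These calls too are given without the share of all PASs at the same limits. Last-exon reads among PASs with 5% of their gene were 99.0% in siCtrl of batch 1, and 100% in siCtrl and 100% in siStar-PAP of batch 2. Depth limits what can be said of the 29 members with at most 45 reads in all.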
